A study of Homo sapiens with 8 samples.

Results

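Palbociclib and olaparib were compared directly in the human cell line A2780, derived from an ovarian carcinoma, by setting the 2 libraries of cells treated with palbociclib alone against the 2 libraries of cells treated with olaparib alone. Both drugs had been on the cells for 24 h, and the sources used here give no dose. These are 4 of the 8 libraries of the study, which has 2 further libraries of cells given the solvent DMSO and 2 of cells given both drugs together. Of the 31721 genes in the table, 12443 had a mean of at least 1 FPKM (fragments scaled for gene length and a size factor per library) over the 8 libraries, and all of these were tested. The study describes the 2 libraries of each group as biological repeats but does not say whether they came from separate cultures, so p-values reflect only how far these libraries differ from each other, part of which may be technical. Every difference given as a log2 value is palbociclib minus olaparib on the log2(FPKM + 1) scale unless another pair of groups is named, and that scale understates the change of low genes. It is followed by its standard error where one is given.

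Olaparib inhibits PARP1 and PARP2, enzymes that bind DNA breaks and add ADP-ribose chains to proteins there. Inhibited PARP stays on DNA, replication forks that meet it need homologous recombination, and the damage can activate the tumour suppressor p53, which A2780 cells carry in wild-type form. Palbociclib inhibits CDK4 and CDK6, the kinases that work with D-type cyclins to phosphorylate the retinoblastoma protein RB. Unphosphorylated RB and its relatives hold back the E2F transcription factors, so genes for DNA replication and, later in the cycle, for mitosis stay low and cells remain in G1. In bulk RNA a lower share of cells in S or G2 phase and less RNA of such genes per cell cannot be told apart.

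The 4 libraries held 21494131 to 30777027 reads, as the reads recovered from the FPKM values sum, and the labelled cell type was checked against marker lists. The labels call the line ovarian carcinoma with epithelial morphology, but none of 15 ovarian and Müllerian epithelial markers in the table reached a mean of 1 FPKM, and their summed level was 1.76 to 4.27 FPKM in the 8 libraries. Only 5 of 26 epithelial identity genes passed the filter, against 17 of 26 mesenchymal identity genes. None of 13 leukocyte, 9 endothelial and 6 erythroid markers passed. Of 10 fibroblast markers 8 passed, with summed levels of 233.1 and 236.0 FPKM with olaparib and 265.9 and 257.4 FPKM with palbociclib.

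With palbociclib 1755 genes were higher than with olaparib and 2551 were lower (limma on all 8 libraries, Benjamini-Hochberg adjusted p under 0.05). These are 14.1% and 20.5% of the 12443 genes tested, the background against which the counts below are to be read. Most differences were small, with a median log2 difference of 0.32 among the higher genes and −0.28 among the lower ones. Only 54 of the higher and 19 of the lower genes differed by more than 1 on the log2 scale. In each called gene both palbociclib libraries lay on one side of both olaparib libraries, which was also so for 30.3% (higher) and 39.6% (lower) of all tested genes. Of the called genes 40.8% were higher, and this share rests on the scaling: with each library set to the same FPKM sum, 2186 were higher and 2065 lower, a share of 51.4%, since the palbociclib libraries summed to 275941 and 274426 FPKM and the olaparib libraries to 281013 and 284708 FPKM. The share of lower calls differed with level, with 38.6% of 2201 genes at 20 to 100 FPKM lower against 9.13% of 5026 genes at 1 to 5 FPKM. The share of higher calls was 13.1% and 13.4% in the same classes. Whether the number of reads has a part in this was not tested. By gene class, 1456 of 10175 protein-coding genes were higher and 2389 lower.

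**Figure D1:**
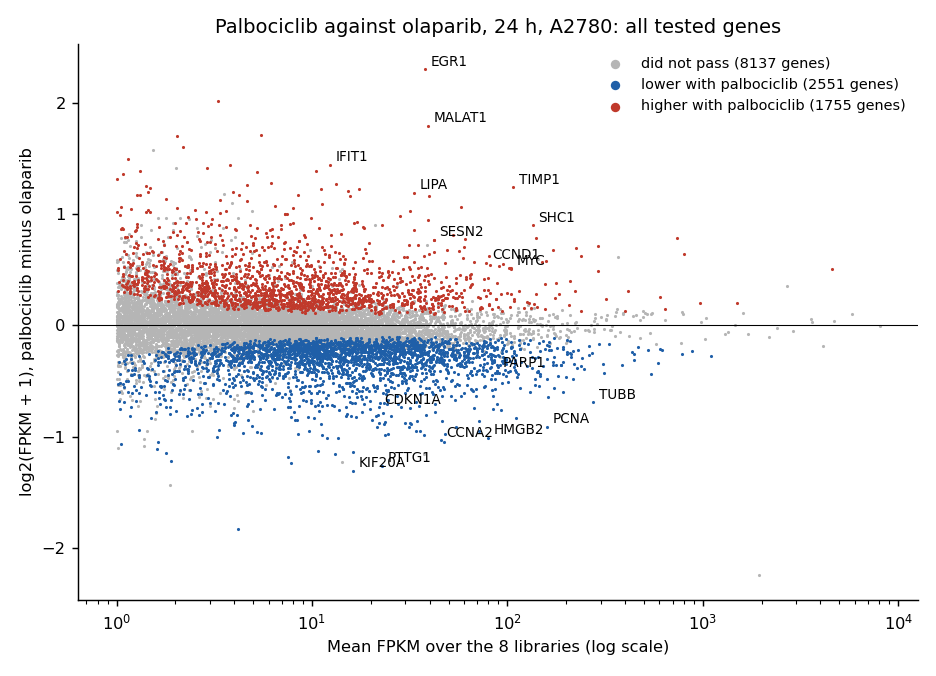
Each point is 1 of 12443 tested genes. The x axis is the mean FPKM over the 8 libraries on a log scale and the y axis the log2(FPKM + 1) difference, palbociclib minus olaparib. Red points (1755) were higher and blue points (2551) lower with palbociclib, grey points did not pass. EGR1 stands highest among the called genes at 2.30.

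The genes were then read in groups. Mitosis, DNA replication and chromatin genes had the largest shares of lower members, followed by p53 targets and the replication stress checkpoint. Growth arrest, mesenchymal and lysosomal genes had the largest shares of higher members. The median over all tested genes was −0.03, beside which the medians of the lists below are given.

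**Figure D2:**
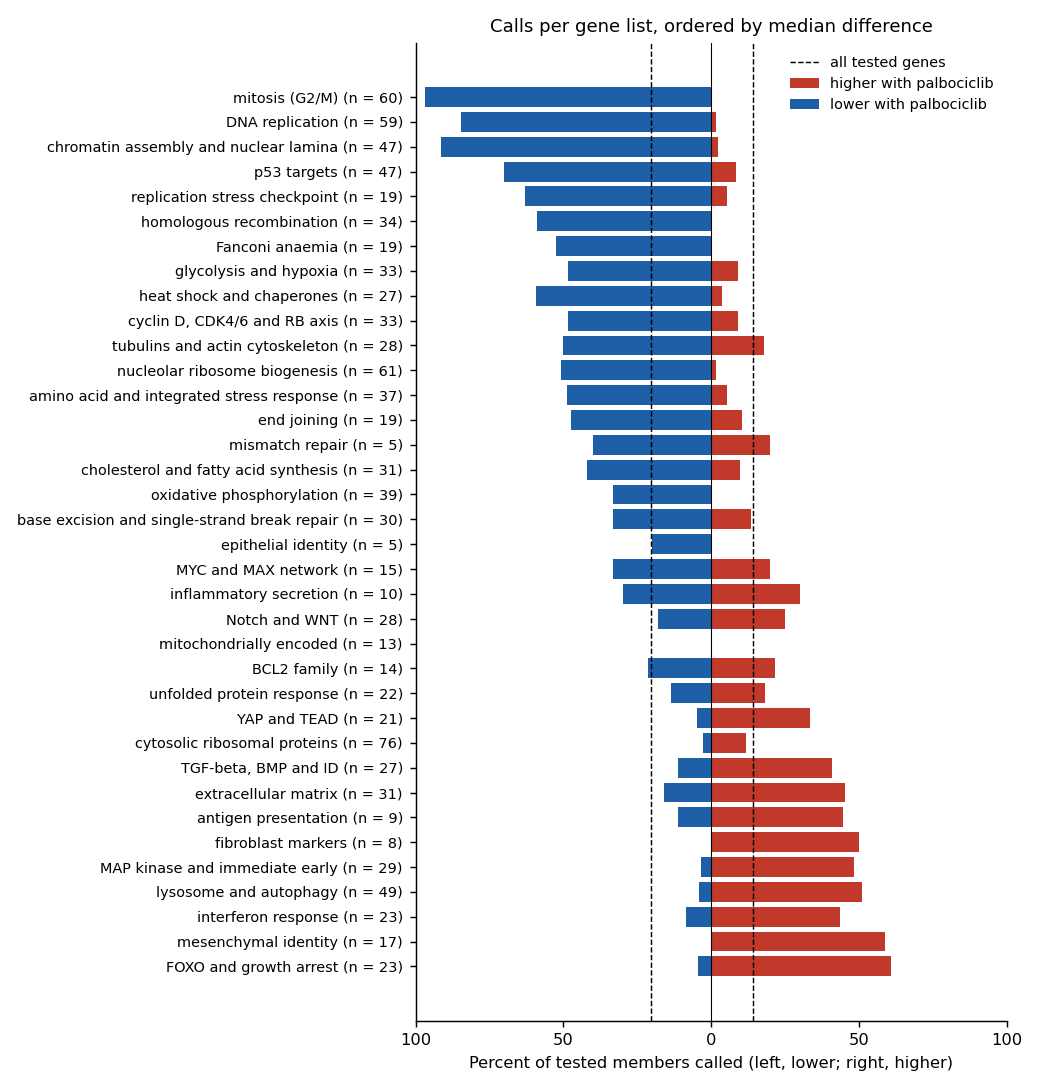
Bars give the percent of the tested members of each gene list that were higher (red, to the right) or lower (blue, to the left) with palbociclib than with olaparib. Dashed lines mark all tested genes (14.1% higher, 20.5% lower). The mitosis list reaches 96.7% lower and the FOXO and growth arrest list 60.9% higher.

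The drug targets themselves were measured first. PARP1, the main target of olaparib, was at 98.8 and 101 FPKM in the olaparib libraries and at 75.2 and 74.4 FPKM in the palbociclib libraries. It was lower with palbociclib by a log2 difference of −0.41 ± 0.03 (limma adjusted p = 0.000223), and the DMSO libraries, at 107 and 107 FPKM, lay above both. PARP2 had a difference of −0.27 ± 0.06 (limma adjusted p = 0.0183), a call that was lost when any 1 of the 4 single-drug libraries was left out. The PARP2 call was also lost with no filter on low values. CDK4, a target of palbociclib, was at 48.4 and 52.3 FPKM with olaparib and 51.7 and 52.0 FPKM with palbociclib, overlapping levels that did not pass the test (0.04 ± 0.06, adjusted p = 0.61). CDK6, the other target, was at 0.738 to 1.03 FPKM in these 4 libraries, under the filter, and was not tested.

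Around CDK4 and RB, the D-type cyclins and the E2F and MYB factors moved apart. Of 33 tested genes of the cyclin D, CDK4/6 and RB list 3 were higher and 16 lower (median −0.19). The 3 higher genes were the cyclins CCND1 and CCND2 and the RB relative RBL2. CCND1 was at 62.6 and 65.1 FPKM with olaparib and 95.0 and 94.2 FPKM with palbociclib, with no overlap (0.56 ± 0.04, adjusted p = 0.000142). CCND2 differed by 0.29 ± 0.04, and RBL2 by 0.15 ± 0.04. The RBL2 call was lost without any 1 of the 4 single-drug libraries. With those 4 libraries alone, or with no filter on low values, it was lost too. CCND3, the third D-type cyclin, did not pass (−0.17 ± 0.06, adjusted p = 0.0622).

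Among the lower genes, E2F1, the activating E2F that RB binds, was at 33.6 and 37.1 FPKM with olaparib and 24.2 and 24.5 FPKM with palbociclib (−0.52 ± 0.05). The DMSO libraries had 34.9 and 35.0 FPKM, so olaparib left E2F1 at a level that overlapped DMSO. The 4 largest differences of the list were those of E2F7 (−0.96 ± 0.06) and E2F8 (−0.82 ± 0.06), repressor E2Fs, of MYBL2 (−0.91 ± 0.05), the B-MYB factor, and of FOXM1 (−0.80 ± 0.04), which drives mitotic genes. MYBL2 was at 67.7 and 73.7 FPKM against 37.1 and 37.1 FPKM. Cyclin E2 and its kinase were lower too, CCNE2 by −0.60 ± 0.09 and CDK2 by −0.55 ± 0.06, whereas CCNE1 did not pass (0.11 ± 0.05, adjusted p = 0.119). RBL1 was lower (−0.49 ± 0.06), and RB1 itself did not pass (−0.14 ± 0.06, adjusted p = 0.132). The inhibitor genes CDKN1B (0.01) and CDKN2A (0.02) did not pass.

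Mitotic genes gave the most uniform group of the comparison. Of 60 tested genes of the mitosis list 58 were lower with palbociclib and 0 higher, with a median of −0.66 (by limma 0 were higher at an unadjusted p under 0.05 either, and by voom 1 was), and 55 to 58 were lower under every alternative tried. The 2 that did not pass were CKS2 (−0.07), a cyclin-dependent kinase subunit, and CDC25C (0.17), a phosphatase that activates CDK1. KIF20A (chr5:138178719-138187715 on GRCh38), a kinesin of the cleavage furrow, was at 22.6 and 23.6 FPKM with olaparib and at 8.89 and 8.63 FPKM with palbociclib. Its difference of −1.31 ± 0.04 (adjusted p = 3.45e-05) was the lowest among protein-coding genes. DMSO libraries had 23.0 and 23.0 FPKM and combination libraries 10.3 and 10.2 FPKM, so KIF20A was low in each of the 4 libraries with palbociclib and high in each of the 4 without.

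PTTG1, securin, which restrains the protease that separates sister chromatids, was at 31.3 and 32.4 FPKM with olaparib and 12.1 and 13.3 FPKM with palbociclib (−1.26 ± 0.05). ESPL1 encodes that protease, separase, and was at 16.5 and 17.0 against 7.64 and 7.91 FPKM (−1.02 ± 0.04). CCNA2, the cyclin of S and G2 phase, was at 59.6 and 60.6 against 29.3 and 28.4 FPKM (−1.04 ± 0.04). In none of these 3 genes did the groups overlap. CDCA3 (−1.24 ± 0.05), SPC25 of the kinetochore (−1.15 ± 0.07) and BIRC5, survivin of the chromosomal passenger complex (−1.05 ± 0.05), were lower too. Against the shared DMSO libraries the list had a median of −0.09 with olaparib and −0.73 with palbociclib.

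Replication genes were lower in the same way. Of 59 tested DNA replication genes 50 were lower and 1 higher (median −0.44). PCNA, the sliding clamp of the replication fork, was at 215 and 215 FPKM with olaparib and 115 and 113 FPKM with palbociclib (−0.91 ± 0.03, adjusted p = 4.98e-05). Its DMSO libraries had 197 and 202 FPKM, below the olaparib libraries. TYMS, thymidylate synthase, differed by −0.92 ± 0.05, GMNN, the licensing inhibitor geminin, by −0.88 ± 0.03, and GINS2 of the replicative helicase by −0.81 ± 0.04. The 1 higher gene was POLE3, a histone-fold subunit of DNA polymerase epsilon (0.17 ± 0.04), a call lost without olaparib replicate 1 or palbociclib replicate 1.

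Chromatin assembly and lamina genes had 43 of 47 tested members lower and 1 higher (median −0.43). HMGB2, a high mobility group DNA-bending protein, was at 106 and 107 FPKM with olaparib and 53.4 and 50.9 FPKM with palbociclib (−1.01 ± 0.04). UHRF1, which maintains DNA methylation after replication, was at 60.5 and 62.6 against 34.1 and 33.0 FPKM (−0.86 ± 0.04). NCAPD2 of condensin (−0.86 ± 0.04) and CHAF1B of the chromatin assembly factor (−0.85 ± 0.04) were lower by like amounts. HMGA2 was the 1 higher member (0.15 ± 0.04), a call lost without either DMSO library, olaparib replicate 2 or either palbociclib library. With only the 4 single-drug libraries, or with no filter on low values, the HMGA2 call was lost too.

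**Figure D3:**
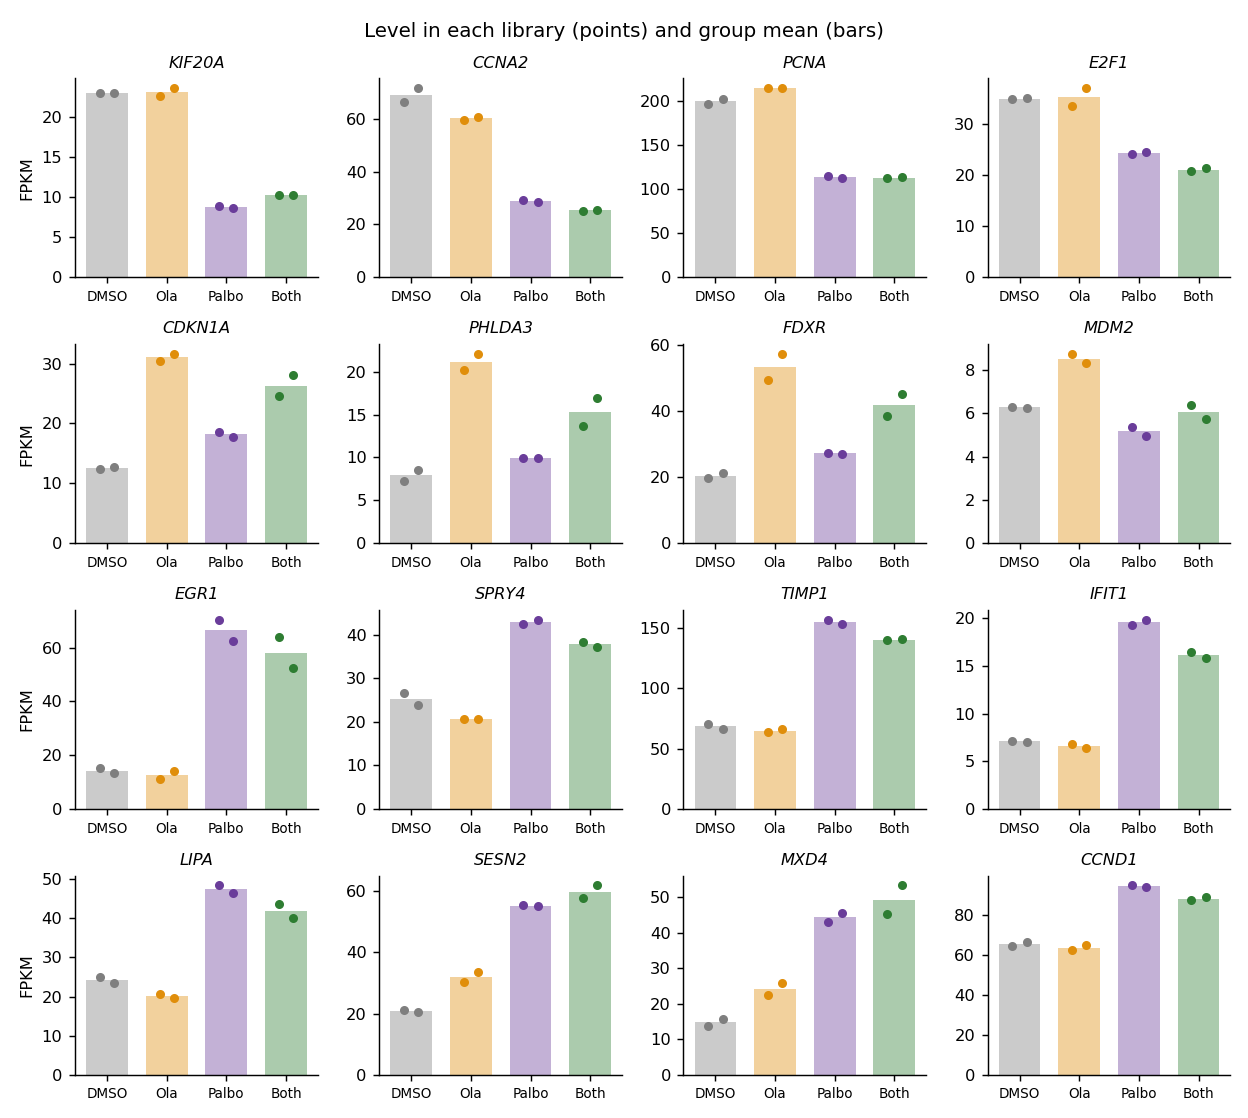
FPKM of 16 genes in each of the 8 libraries (points) with the group mean (bars, from 0), for DMSO, olaparib (Ola), palbociclib (Palbo) and the combination (Both). The cell cycle genes of the top row are low in the 4 libraries with palbociclib, and CDKN1A, PHLDA3 and FDXR are highest with olaparib alone.

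The promoters of these genes are shown because the lists that fell hold known elements. RefSeq promoters (GRCh38.p14, 250 bases before to 50 bases after the start) were matched for 8815 of the 12443 tested genes. The cell cycle genes homology region, or CHR, is the element through which the DREAM and MYB-MuvB complexes bind mitotic promoters, and was searched on both strands as TTTGAA, with TTCGAA and the spelling TTTAAA as variants, of which the last pair read alike on both strands and were counted once. The box bound by NF-Y was searched as CCAAT on both strands. In the lines below, the 130 bases before the start are given 5′ to 3′ on the strand of the gene, with CHR and CCAAT matches in capitals.
KIF20A (chr5:138178982-138179111, + strand): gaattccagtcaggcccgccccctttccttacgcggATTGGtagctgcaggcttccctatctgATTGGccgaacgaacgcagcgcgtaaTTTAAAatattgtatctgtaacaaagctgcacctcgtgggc
CCNB2 (chr15:59105016-59105145, + strand): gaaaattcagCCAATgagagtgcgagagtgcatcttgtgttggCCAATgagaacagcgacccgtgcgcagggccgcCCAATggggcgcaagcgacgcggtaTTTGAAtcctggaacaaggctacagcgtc
PTTG1 (chr5:160421725-160421854, + strand): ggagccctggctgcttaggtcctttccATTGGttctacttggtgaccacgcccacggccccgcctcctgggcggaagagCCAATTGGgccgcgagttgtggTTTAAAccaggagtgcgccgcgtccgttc
ESPL1 (chr12:53268169-53268298, + strand): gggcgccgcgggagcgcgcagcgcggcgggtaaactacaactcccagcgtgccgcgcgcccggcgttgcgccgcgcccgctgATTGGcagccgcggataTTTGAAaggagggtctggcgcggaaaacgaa
CDC20 (chr1:43358851-43358980, + strand): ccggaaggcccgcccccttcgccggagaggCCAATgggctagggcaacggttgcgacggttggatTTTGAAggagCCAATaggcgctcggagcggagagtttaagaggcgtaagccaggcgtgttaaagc
PLK1 (chr16:23678759-23678888, + strand): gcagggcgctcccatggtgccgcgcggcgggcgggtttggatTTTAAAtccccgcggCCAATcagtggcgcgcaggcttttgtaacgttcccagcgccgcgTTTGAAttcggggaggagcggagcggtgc
KIF20A, PTTG1 and ESPL1 were named above. CCNB2 (cyclin B2), CDC20 (the activator of the anaphase-promoting complex) and PLK1 (the Polo kinase) were chosen for show after their values were seen, and they differed by −0.65 ± 0.06, −0.76 ± 0.06 and −0.87 ± 0.06. In PTTG1 a pair of CCAAT matches on opposite strands overlap. 

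A CHR match stood in 44 of the 51 matched mitosis promoters (86.3%), against 16.4% of all matched tested promoters and 25.3% of the 27305 promoters of that length in the table. CCAAT stood in 78.4% of the mitosis promoters and 37.5% of all tested, and both together in 70.6% and 7.0%. In the genes lower with palbociclib as a whole, the CHR share was 20.4%, and it was 36.2% of the 243 matched genes lower by more than 0.5 on the log2 scale. The genes higher with palbociclib had a share of 16.3%. The promoters of CCNA2 and AURKB hold none of the 3 spellings in this window.

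E2F sites were searched as TTTCCCGC, TTTGGCGC, TTTCGCGC or TTTGCCGC on both strands. The promoters of MCM10, MYBL2, RRM1 and TK1 were searched as well and hold none of these spellings from 250 bases before to 50 bases after the start. The windows of E2F1, PCNA, GINS2 and UHRF1, genes that were lower, are shown as examples that hold a match, with E2F matches in capitals.
E2F1 (chr20:33686386-33686515, - strand): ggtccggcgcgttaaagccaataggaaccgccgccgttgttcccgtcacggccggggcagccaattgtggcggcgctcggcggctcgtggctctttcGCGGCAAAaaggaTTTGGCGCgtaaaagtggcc
PCNA (chr20:5126623-5126752, - strand): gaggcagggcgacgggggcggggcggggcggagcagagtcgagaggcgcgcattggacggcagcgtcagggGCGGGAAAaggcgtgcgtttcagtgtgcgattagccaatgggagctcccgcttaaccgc
GINS2 (chr16:85688955-85689084, - strand): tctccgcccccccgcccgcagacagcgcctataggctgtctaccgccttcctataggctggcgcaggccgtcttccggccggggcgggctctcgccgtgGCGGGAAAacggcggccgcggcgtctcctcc
UHRF1 (chr19:4909371-4909500, + strand): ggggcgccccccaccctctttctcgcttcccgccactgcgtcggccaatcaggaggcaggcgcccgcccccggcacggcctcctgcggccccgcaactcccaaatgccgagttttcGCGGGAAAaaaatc
E2F1 holds a pair of matches on opposite strands and the others 1 each. Such a match stood in 20 of 51 DNA replication promoters (39.2%) and in 4 of 51 mitosis promoters (7.84%), against 5.76% of all tested and 3.33% of all promoters in the table. It stood in 9.35% of the promoters of lower genes and in 2.61% of those of higher genes. A match is a description of these letters and not a bound site.

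**Figure D4:**
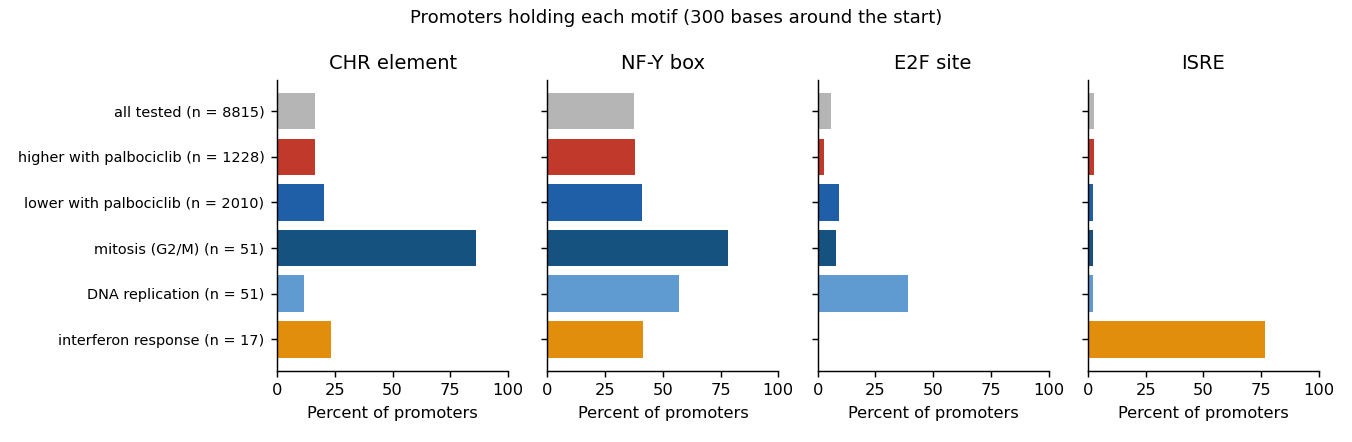
Percent of matched promoters (300 bases around the start) that hold each motif, by gene set, with the number of promoters in brackets. The CHR element stands in 86.3% of mitosis promoters, the E2F site in 39.2% of replication promoters and the interferon-stimulated response element (ISRE) in 76.5% of interferon response promoters.

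Targets of p53 were lower with palbociclib as well, but from another order of the groups. Of 47 tested p53 targets 33 were lower with palbociclib than with olaparib and 4 were higher (median −0.32), with 2 higher without olaparib replicate 1 or either palbociclib library. Against the DMSO libraries, which both contrasts share, the list had a median of 0.39 with olaparib and 0.13 with palbociclib. CDKN1A (chr6:36676460-36687339 on GRCh38), the p21 inhibitor of cyclin-dependent kinases, was at 30.5 and 31.7 FPKM with olaparib, 18.7 and 17.8 FPKM with palbociclib and 12.4 and 12.7 FPKM with DMSO. The difference of −0.74 ± 0.06 (adjusted p = 0.000361) thus lay between groups that were both above DMSO.

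PHLDA3, an inhibitor of AKT signalling, was at 20.2 and 22.1 FPKM with olaparib, 9.96 and 9.95 FPKM with palbociclib and 7.25 and 8.55 FPKM with DMSO (−1.02 ± 0.11). FDXR, ferredoxin reductase, was at 49.3 and 57.2 FPKM with olaparib and 27.4 and 26.8 FPKM with palbociclib (−0.95 ± 0.09). MDM2, the ligase that degrades p53, was at 8.76 and 8.32 FPKM with olaparib, 5.39 and 4.97 FPKM with palbociclib and 6.30 and 6.27 FPKM with DMSO (−0.63 ± 0.06). In MDM2 the palbociclib libraries lay below DMSO and the olaparib libraries above it. RPS27L, a ribosomal protein S27 paralogue (−0.83 ± 0.06), the nuclease gene AEN (−0.81 ± 0.06), the repair gene DDB2 (−0.62 ± 0.04) and the death effector BAX (−0.59 ± 0.05) were lower too. E2F7, counted above with the E2Fs, is also a member, with an olaparib minus DMSO value of 0.14.

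The higher members included SESN2, SERTAD1 and TNFRSF10C. SESN2, a sestrin that restrains mTORC1, was at 30.4 and 33.5 FPKM with olaparib, 55.3 and 54.9 FPKM with palbociclib and 21.3 and 20.5 FPKM with DMSO (0.77 ± 0.05). The call of TNFRSF10C was lost without olaparib replicate 1 or either palbociclib library. It was also lost with only the 4 single-drug libraries and with no filter on low values. BTG2, an antiproliferative factor, was at 19.8 and 21.6 with olaparib and 16.9 and 16.1 FPKM with palbociclib, against 8.63 and 8.90 FPKM with DMSO (−0.31 ± 0.06), and GDF15, a secreted stress factor, did not pass (−0.19, adjusted p = 0.25).

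**Figure D5:**
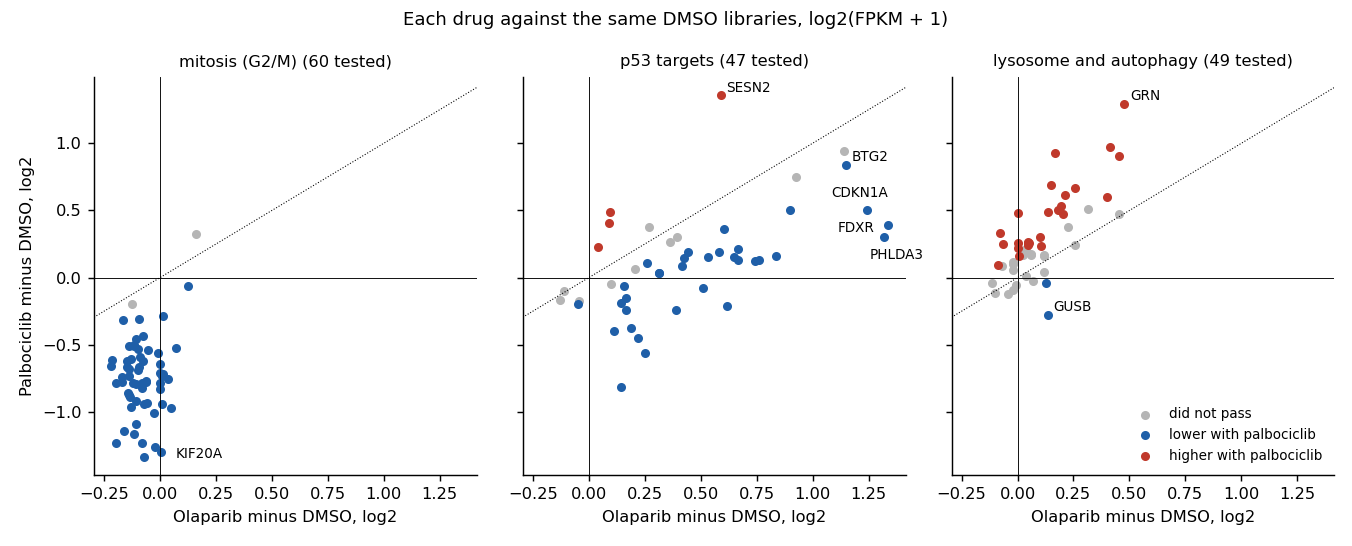
Each point is a tested member of the mitosis, p53 target or lysosome and autophagy list. The x axis is olaparib minus DMSO and the y axis palbociclib minus DMSO, both log2(FPKM + 1) and both against the same DMSO libraries. Points below the dotted line of equality are lower with palbociclib. Mitosis genes lie near 0 for olaparib and below 0 for palbociclib, with a palbociclib median of −0.73. Most p53 targets lie to the right of 0.

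Homologous recombination, the repair route on which cells under PARP inhibition depend, had 20 of 34 tested genes lower and 0 higher (median −0.22; by limma 2 were higher at an unadjusted p under 0.05, and by voom 1 passed). EXO1, a resection nuclease, was at 17.5 and 17.2 FPKM with olaparib and 9.80 and 9.91 FPKM with palbociclib (−0.76 ± 0.04). RAD51AP1 (−0.70 ± 0.05), DNA2 (−0.59 ± 0.06) and RAD51C (−0.49 ± 0.04) were lower. BRCA1, which directs recombination to breaks, was at 12.1 and 11.5 against 8.59 and 8.85 FPKM (−0.39 ± 0.05). BRCA2, which also acts in recombination, differed by −0.32 ± 0.07, a call lost without olaparib replicate 1 or palbociclib replicate 2.

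The Fanconi anaemia list had 10 of 19 lower and 0 higher (1 at an unadjusted limma p under 0.05 and 1 by voom), led by FANCI (−0.59 ± 0.06) and UBE2T (−0.53 ± 0.06). The list for replication stress checkpoint genes had 12 of 19 lower, led by DONSON (−0.73 ± 0.06) and CLSPN (−0.71 ± 0.08), and 1 higher, the kinase gene ATM (0.28 ± 0.06), a call lost without olaparib replicate 2 or either palbociclib library. End joining had 9 of 19 lower and 2 higher. PAXX, a Ku partner, was lower (−0.56 ± 0.08) and POLQ, the polymerase of microhomology joining, as well (−0.45 ± 0.06). The 2 higher end joining genes were LIG4 (0.37 ± 0.08), a call lost without olaparib replicate 2 or either palbociclib library, and DCLRE1C (0.34 ± 0.07), lost without palbociclib replicate 1. The LIG4 call was also lost with no filter on low values.

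Base excision and single-strand break repair, the pathway that PARP1 serves, had 10 of 30 tested genes lower and 4 higher (median −0.08). NEIL3, a DNA glycosylase, was lower (−0.71 ± 0.05). PARP3, a break-responsive PARP, was at 3.28 and 3.28 FPKM with olaparib and 4.82 and 4.94 FPKM with palbociclib (0.46 ± 0.06). Without olaparib replicate 2, palbociclib replicate 1 or palbociclib replicate 2 the lower count was 5, 6 and 5. Mismatch repair had 2 of 5 tested genes lower, among them MSH6 (−0.25 ± 0.03), and PMS2 higher (0.17 ± 0.05). The PMS2 call was lost without either DMSO library, olaparib replicate 2 or either palbociclib library. It was also lost with only the 4 single-drug libraries and with no filter on low values.

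Among growth and metabolic genes the lower calls outnumbered the higher ones. The nucleolar ribosome biogenesis list had 31 of 61 lower and 1 higher (median −0.16), with medians against DMSO of −0.25 for olaparib and −0.36 for palbociclib. The lower count was 20 without olaparib replicate 2, 16 without palbociclib replicate 2 and 18 under quantile normalisation. TCOF1, treacle of ribosomal RNA transcription, was at 28.7 and 30.7 FPKM with olaparib and 22.3 and 21.1 FPKM with palbociclib (−0.44 ± 0.05). FBL, fibrillarin, was at 123 and 128 against 95.6 and 93.5 FPKM (−0.41 ± 0.04). MYC, which drives many such genes, was higher with palbociclib, at 83.1 and 90.8 FPKM with olaparib and 125 and 123 FPKM with palbociclib (0.51 ± 0.05). MXD4, a MAX partner that opposes MYC, was higher as well, at 22.4 and 25.8 FPKM against 43.1 and 45.6 FPKM and 13.8 and 15.7 FPKM with DMSO (0.86 ± 0.10). The whole MYC and MAX network had 3 of 15 higher and 5 lower, 3 lower without palbociclib replicate 2.

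The heat shock and chaperone list had 16 of 27 lower and 1 higher (median −0.20). HSP90AA1, the inducible HSP90, was at 273 and 264 FPKM with olaparib and 212 and 196 FPKM with palbociclib (−0.39 ± 0.05), and CCT5 of the chaperonin ring was lower (−0.45 ± 0.03). HSF2, a heat shock factor, was the 1 higher member (0.28 ± 0.03). In glycolysis and hypoxia 16 of 33 were lower and 3 higher (10 lower without palbociclib replicate 2). LDHA, lactate dehydrogenase, was at 203 and 198 against 139 and 132 FPKM (−0.56 ± 0.04), SLC2A1, the glucose transporter GLUT1, differed by −0.64 ± 0.04, and the related SLC2A3 was higher (0.48 ± 0.04).

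Amino acid and integrated stress genes had 18 of 37 lower (11 under quantile normalisation) and 2 higher. The transporter genes SLC1A5 (−0.62 ± 0.05) and SLC7A5 (−0.45 ± 0.05) were lower, whereas SLC38A2, another amino acid transporter, was higher at 129 and 123 against 189 and 187 FPKM (0.58 ± 0.05). Oxidative phosphorylation had 13 of 39 lower and 0 higher (1 at an unadjusted limma p under 0.05 and 2 by voom), led by CYCS, cytochrome c (−0.43 ± 0.05). This direction rests on the scaling. Under quantile normalisation 4 were lower and 4 higher, and the median moved from −0.11 to −0.02. The lower count also fell when olaparib replicate 1, olaparib replicate 2 or palbociclib replicate 2 was left out. Cholesterol and fatty acid synthesis had 13 of 31 lower and 3 higher, with 8 lower without olaparib replicate 2 and 7 without palbociclib replicate 2. LSS, lanosterol synthase, had its largest difference (−0.45 ± 0.05). None of the 13 mitochondrially encoded messages passed, with differences of −0.20 to 0.10 (by limma 1 was lower at an unadjusted p under 0.05, and by voom 1 was higher and 1 lower), and the sign of their median turned with the scaling.

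The tubulin and actin list was divided. Of 28 tested genes 14 were lower and 5 higher (median −0.18). TUBA1B, an alpha-tubulin, was at 39.9 and 43.2 FPKM with olaparib and 21.6 and 21.4 FPKM with palbociclib (−0.92 ± 0.04), and STMN1, the tubulin-binding stathmin, was at 44.7 and 43.8 against 23.2 and 21.6 FPKM (−0.95 ± 0.04). Tubulin genes share near-identical coding sequence, so reads may have been split between them. Of the actin genes, ACTB (−0.26 ± 0.05) and the myosin MYH9 (−0.28 ± 0.04) were lower, and TUBA1A was the 1 tubulin that was higher (0.29 ± 0.04). The other higher members included ZYX, zyxin of focal adhesions, at 24.7 and 28.5 against 52.9 and 50.9 FPKM (0.94 ± 0.08), VCL, vinculin (0.62 ± 0.04), and GSN, the actin-severing gelsolin (0.81 ± 0.05).

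Of 29 tested immediate early and MAP kinase feedback genes 14 were higher and 1 lower (median 0.17), and 9 were higher with a filter at a mean of 5 FPKM, which tests fewer genes. EGR1 (chr5:138465490-138469315 on GRCh38), an immediate early transcription factor, was at 11.2 and 14.3 FPKM with olaparib and 70.4 and 62.4 FPKM with palbociclib (2.30 ± 0.14, adjusted p = 0.000123). DMSO libraries had 15.1 and 13.2 FPKM and combination libraries 63.7 and 52.4 FPKM. EGR1 was thus high in each of the 4 libraries with palbociclib, with no overlap with the others.

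FOS, a component of AP-1, was at 1.65 and 2.11 against 5.16 and 5.38 FPKM (1.13 ± 0.08). DUSP2, a phosphatase that inactivates ERK, was at 4.60 and 5.32 FPKM with olaparib, 11.3 and 11.4 FPKM with palbociclib and 7.15 and 6.59 FPKM with DMSO (1.06 ± 0.07). SPRY4, a Sprouty inhibitor of receptor signalling, was at 20.6 and 20.7 FPKM with olaparib, 42.5 and 43.4 FPKM with palbociclib and 26.6 and 23.9 FPKM with DMSO (1.02 ± 0.05). In DUSP2 and SPRY4 the olaparib libraries lay below DMSO and the palbociclib libraries above. DUSP7, another ERK phosphatase, was the 1 lower member (−0.34 ± 0.04).

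The EGR1 promoter is shown because EGR1 had the largest difference. Its window holds a pair of CArG boxes, the element bound by serum response factor, in capitals.
EGR1 (chr5:138465349-138465478, + strand): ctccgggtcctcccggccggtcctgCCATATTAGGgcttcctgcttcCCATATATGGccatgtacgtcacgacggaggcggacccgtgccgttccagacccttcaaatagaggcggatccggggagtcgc
The promoters of FOS, ZYX, VCL and JUNB were searched as well and hold none from 250 bases before to 50 bases after the start. Bases further from the start were not searched. CArG boxes stood in 0.964% of all tested promoters, in 1.14% of those of higher genes and in 2 of the 23 matched promoters of the MAP kinase and immediate early list. This search, and that for the ISRE below, was added after the values were seen.

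Targets of YAP and TEAD and of TGF-beta and BMP signalling had more higher than lower calls, with list medians close to that of all tested genes. The YAP and TEAD list had 7 of 21 higher and 1 lower (median 0.03), with 4 higher without olaparib replicate 1 or without either palbociclib library. CYR61, a matricellular protein, was at 36.2 and 38.6 FPKM with olaparib and 83.1 and 75.9 FPKM with palbociclib (1.07 ± 0.05), and the coactivator gene WWTR1 (TAZ) was at 6.56 and 6.52 against 12.6 and 11.5 FPKM (0.79 ± 0.06). TEAD4 was lower (−0.39 ± 0.07). The TGF-beta, BMP and ID list had 11 of 27 higher and 3 lower (median 0.06). ID3, a dominant-negative helix-loop-helix factor, was at 167 and 202 against 288 and 279 FPKM (0.62 ± 0.10), ID2 differed by 0.63 ± 0.10, and TGIF1, a SMAD corepressor, by 0.73 ± 0.06. BMP7 was lower, at 2.81 and 2.83 against 1.93 and 2.01 FPKM (−0.36 ± 0.06).

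Interferon-stimulated genes were mostly low in these cells, and 23 of 47 in the table were tested. Of these 10 were higher and 2 lower (median 0.18), with 6 higher without olaparib replicate 2 or without palbociclib replicate 2. IFIT1, which binds foreign RNA ends, was at 6.81 and 6.37 FPKM with olaparib and 19.3 and 19.9 FPKM with palbociclib (1.44 ± 0.04), with DMSO at 7.14 and 7.07 FPKM. IFIT1 (chr10:89392546-89406486) lies within the annotated span of LIPA (chr10:89213569-89414557), a lysosomal gene that was also higher. Reads of IFIT1 and LIPA may not be wholly separate, which was not tested. IFITM1, a membrane restriction factor, differed by 0.58 ± 0.08. USP18, which removes ISG15 and damps the receptor, was lower (−0.53 ± 0.06), and ISG15 did not pass (−0.04, adjusted p = 0.676). The IFIT1 window is shown with its ISRE matches, searched as TTTCNNTTTC on both strands, in capitals.
IFIT1 (chr10:89392493-89392622, + strand): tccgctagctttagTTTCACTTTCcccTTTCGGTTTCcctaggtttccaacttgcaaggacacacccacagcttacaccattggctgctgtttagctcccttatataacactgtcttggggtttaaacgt
An ISRE stood in 13 of 17 matched interferon response promoters (76.5%) and in 2.44% of all tested. It stood in 2.52% of the promoters of higher genes.

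Antigen presentation had 4 of 9 higher and 1 lower. HLA-E, a non-classical class I gene, was at 10.9 and 12.3 FPKM with olaparib and 17.7 and 17.2 FPKM with palbociclib (0.55 ± 0.07), and HLA-B and HLA-C differed by 0.32 ± 0.05 and 0.32 ± 0.05. Class I genes are alike in sequence, so reads may have been split between them. B2M, their shared light chain, did not pass (−0.01, adjusted p = 0.866).

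The FOXO and growth arrest list had 14 of 23 higher and 1 lower (median 0.34), and their medians against DMSO were 0.24 with olaparib and 0.47 with palbociclib. YPEL5, a Yippee-like protein, was at 4.70 and 4.11 FPKM with olaparib, 9.21 and 9.01 FPKM with palbociclib and 3.13 and 3.66 FPKM with DMSO (0.91 ± 0.08). PDCD4, a translation inhibitor, was at 9.92 and 10.2 FPKM with olaparib, 18.9 and 18.3 FPKM with palbociclib and 7.34 and 7.60 FPKM with DMSO (0.82 ± 0.04). In both genes all olaparib values lay above DMSO and all palbociclib values above olaparib. SESN3 (0.68 ± 0.05) and PIK3IP1, a PI3-kinase inhibitor (0.67 ± 0.12), had the next largest differences. SESN1, a sestrin that is also a p53 target, was the 1 lower member (−0.49 ± 0.05).

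Lysosome and autophagy genes had 25 of 49 tested members higher and 2 lower (median 0.17). GRN, progranulin, was at 36.3 and 39.5 FPKM with olaparib, 67.8 and 66.9 FPKM with palbociclib and 25.8 and 28.1 FPKM with DMSO (0.81 ± 0.07). WIPI1 of the autophagosome membrane (0.76 ± 0.08), the cathepsin CTSF (0.56 ± 0.05) and GABARAPL1, an ATG8 family protein (0.54 ± 0.05), followed. The 2 lower members included GUSB, beta-glucuronidase (−0.41 ± 0.04). LIPA, lysosomal acid lipase, is not in the list and had a larger difference, at 20.7 and 19.7 FPKM with olaparib and 48.4 and 46.4 FPKM with palbociclib (1.19 ± 0.06). Its annotated span encloses IFIT1, so LIPA and IFIT1 may not be independent results.

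Mesenchymal identity genes had 10 of 17 higher and 0 lower (median 0.22; 0 lower also at an unadjusted limma p under 0.05 and by voom), and 6 were higher without palbociclib replicate 1. CALD1, caldesmon of actin filaments, was at 26.7 and 25.6 FPKM with olaparib and 45.2 and 42.6 FPKM with palbociclib (0.72 ± 0.06). S100A4 was at 139 and 134 against 223 and 214 FPKM (0.67 ± 0.04), and the transcription factor SNAI2 at 28.5 and 28.4 against 41.8 and 40.1 FPKM (0.51 ± 0.05). Of the 5 epithelial identity genes tested 0 were higher (0 also at an unadjusted limma p under 0.05 and by voom), and the junction gene JUP was lower (−0.24 ± 0.06). The JUP call was lost without olaparib replicate 2 or either palbociclib library, and with no filter on low values.

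Extracellular matrix genes had 14 of 31 higher and 5 lower (median 0.09). TIMP1, an inhibitor of matrix metalloproteinases, was at 63.5 and 66.3 FPKM with olaparib and 157 and 153 FPKM with palbociclib (1.24 ± 0.04, adjusted p = 4.98e-05). COL1A2 (0.47 ± 0.04), NID1, nidogen of basement membranes (0.46 ± 0.04), and LAMB2, a laminin (0.43 ± 0.04), were higher, and COL5A2 was lower (−0.31 ± 0.05). The lower count was 1 without olaparib replicate 2 or either palbociclib library. Fibroblast markers, which share genes with this list, had 4 of 8 higher, and their part in the matrix counts was not tested.

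The remaining lists were small or divided. Notch and WNT genes had 7 of 28 higher and 5 lower, with 4 higher without palbociclib replicate 1, and 3 lower without olaparib replicate 2 or either palbociclib library. HES1, a Notch effector, was higher (0.70 ± 0.06), DKK1, a secreted WNT inhibitor, was at 169.9 and 176 against 287 and 273 FPKM (0.69 ± 0.04), and the receptor NOTCH1 was lower (−0.55 ± 0.06). The BCL2 family had 3 of 14 higher, among them MCL1 (0.28 ± 0.04), and 3 lower, among them BAX and BNIP3 (−0.42 ± 0.04). Cytosolic ribosomal protein genes had 9 of 76 higher and 2 lower, counts that went to 28 and 5 under quantile normalisation and to 2 and 0 without olaparib replicate 1 or 2. The higher count was 4 without either DMSO library, 3 without palbociclib replicate 1 and 5 without palbociclib replicate 2, and the lower count 0 without either palbociclib library. The unfolded protein response had 4 of 22 higher and 3 lower; the higher count was 2 without either DMSO library or olaparib replicate 1, 1 without palbociclib replicate 1 and 0 without olaparib replicate 2 or palbociclib replicate 2. The inflammatory secretion list had 3 of 10 higher, 1 without palbociclib replicate 2, and 3 lower, 0 without olaparib replicate 2 or either palbociclib library.

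Several of the protein-coding genes with the largest differences belong to no list. GPR84, a receptor for medium-chain fatty acids, was at 0.251 and 0.0858 FPKM with olaparib and 2.52 and 2.07 FPKM with palbociclib (1.50 ± 0.14). DMSO libraries had 0.346 and 0.381 FPKM and combination libraries 1.99 and 1.49 FPKM. GPR84 thus passed the filter only through the libraries with palbociclib. PTGS2, the cyclooxygenase COX-2, was at 1.82 and 1.53 against 6.72 and 5.83 FPKM (1.44 ± 0.12), and S100A3, a calcium-binding protein, at 2.06 and 2.97 against 8.59 and 7.62 FPKM (1.38 ± 0.13). TSPYL2, a nucleosome assembly protein relative, was at 9.87 and 10.3 against 24.8 and 24.8 FPKM (1.22 ± 0.07). TMEM87B (1.22 ± 0.06), the neuropeptide precursor VGF (1.16 ± 0.07) and the histone gene HIST1H2BK (1.16 ± 0.08) complete the 12 highest with EGR1, IFIT1, TIMP1, LIPA and FOS. Of the 12 lowest, 3 belong to no list: TMSB15A, a thymosin that binds actin monomers (−1.14 ± 0.10), C1QL1, a secreted C1q-like protein (−1.13 ± 0.08), and WDR76 (−0.99 ± 0.05). C1QL1 was at 15.5 and 17.8 FPKM with olaparib, 7.18 and 6.90 FPKM with palbociclib and 13.0 and 14.0 FPKM with DMSO, so the olaparib libraries lay above DMSO and the palbociclib libraries below it.

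Several noncoding genes had large differences with large errors. MALAT1, a nuclear long noncoding RNA, was at 19.0 and 23.3 FPKM with olaparib and 50.05 and 113.5 FPKM with palbociclib (1.80 ± 0.44, adjusted p = 0.0203). The groups did not overlap, but the palbociclib libraries lay far apart, and the combination libraries were at 54.8 and 24.6 FPKM. The call was lost without either olaparib library or palbociclib replicate 2, and with no filter on low values. MIR4258, a microRNA gene of low level, was at 1.41 and 2.31 against 9.01 and 7.58 FPKM (1.71 ± 0.19). Of the small RNA genes that were lower, SNORD99 was at 15.6 and 7.11 against 4.92 and 3.39 FPKM (−1.19 ± 0.32). The SNORD99 call was lost without olaparib replicate 1 or either palbociclib library. It was also lost with only the 4 single-drug libraries and with no filter on low values. The libraries were made from polyadenylated RNA, and reads on small RNA genes within other genes cannot be told apart from reads of those genes.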

How the data were processed

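Polyadenylated RNA from A2780 cells was sequenced in 8 libraries, 2 for each of DMSO, olaparib, palbociclib and both drugs. The authors deposited 1 table of FPKM values per gene. Per the submitters' processing notes, the tools were CASAVA 1.8, STAR 2.5.1b and HTSeq 0.6.0, with the build GRCh38. Strand setting and annotation release are not given in the sources used here, and overlapping and antisense genes cannot be told apart. Gene symbols, classes and coordinates were taken from GENCODE v29, which holds 30945 of the 31721 genes. Whole reads were recovered for 90.3% of genes with that release's gene lengths (tolerance 0.01 reads), lengths were searched for 3085, and 1 gene gave none. The scale of each library in the FPKM table matched the median-of-ratios size factor of these reads to within 3.81e-07%, and not their sum. The recovered reads sum to 20566158 to 34057055 per library and set the precision of low genes.

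The values were tested as log2(FPKM + 1), with a pseudocount of 1, in genes with a mean of at least 1 FPKM over the 8 libraries (19278 genes fell below), with limma 3.58.1 (R 4.3.3; trend, all 8 libraries, 4 residual and 3.01 prior degrees of freedom, Benjamini-Hochberg adjustment over all 12443 genes, threshold 0.05). All 8 libraries share 1 estimate of the spread. A permutation test of 2 against 2 libraries cannot go below 0.333 and was not used. The script was tested on simulated data. Genes named are the 12 highest and 12 lowest protein-coding genes with libraries that do not overlap, the 4 largest calls of each gene list with those against its majority, 23 fixed genes, and the 4 highest and 4 lowest noncoding genes; others were chosen after their values were seen. The members and lists were chosen with earlier results of these data known. Alternatives were another pseudocount, other filters, fewer libraries, other scalings, voom on the recovered reads and a replicate block. Motifs were searched in RefSeq promoters, as given with the results. Results of some genes are not reported here.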

Additional observations from a re-analysis of the deposited data

How the results depend on the processing

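The 1755 higher and 2551 lower genes became 1743 and 2544 with a pseudocount of 0.1, 1245 and 1793 with no filter, 1198 and 2279 with a filter at a mean of 5 FPKM, 1420 and 2138 with only the 4 single-drug libraries, 2037 and 2150 after quantile normalisation, 2186 and 2065 as TPM, and 2563 and 2630 by voom on recovered reads. Leaving out each library in turn gave 944 to 1798 higher and 1434 to 2665 lower genes. The higher count was 1098 without olaparib replicate 1, 944 without palbociclib replicate 1 and 1031 without palbociclib replicate 2, and the lower count 1664 without olaparib replicate 2 and 1434 without palbociclib replicate 2; these fits have fewer samples, and a lone library is assumed to vary like the other groups. With a replicate block, 1807 were higher and 2729 lower. Deviations of same-numbered olaparib and palbociclib libraries were nearly uncorrelated over the genes (correlation −0.05), which cannot exclude a shared batch of small effect. Of 206 named genes called, 157 kept their call in all 16 alternatives and 49 lost it in at least 1; none reversed. The median over all genes moved by less than 0.1 under each scaling. With 2 libraries a group and 1 cell line, small differences of low genes could not be detected.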

Other observations

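Gene families outside the lists were read after the values were seen, and their counts are descriptions. Not all families went 1 way. Of 289 tested zinc finger genes (symbols ZNF) 28 were higher and 21 lower, with a median of −0.001. Both are smaller shares than the 14.1% and 20.5% of all tested genes. The balance differed with the scaling and the model: 40 were higher and 14 lower as TPM, 52 and 24 by voom, and 24 and 24 with a replicate block. Of 43 SNORD genes 8 were higher and 4 lower. With no filter on low values 1 was higher and 0 lower (9 and 4 at an unadjusted limma p under 0.05), and by voom 4 and 3. SNORD116-27, counted as higher, was at 0.465 and 1.14 FPKM with olaparib and 2.97 and 2.39 FPKM with palbociclib. It passed the filter only through the libraries with palbociclib alone. Among DUSP genes, some of which are in the MAP kinase list, 3 of 13 were higher and 2 lower. All 3 SPRY genes and 1 of 2 YPEL genes were higher. Messages of replication-dependent histone genes usually end without a poly(A) tail. Only polyadenylated RNA was sequenced, so such messages without a tail were largely not measured. Of 13 tested genes of this family, 7 were higher with palbociclib than with olaparib and 0 lower by limma (8 higher and 0 lower at an unadjusted p under 0.05, 8 and 0 by voom). Their median log2 difference was 0.41, and 4 were higher without palbociclib replicate 1, 4 with no filter on low values and 3 with a filter at 5 FPKM. HIST1H1C, a linker histone gene of that family, was at 17.7 and 19.5 FPKM with olaparib and 26.8 and 26.0 FPKM with palbociclib (0.48 ± 0.06). HIST1H2BC, also counted as higher, was at 0.461 and 0.714 FPKM with olaparib and 1.47 and 1.50 FPKM with palbociclib. DMSO libraries had 0.553 and 0.447 FPKM and combination libraries 2.03 and 2.49 FPKM. It passed the filter only through the libraries with palbociclib, as did HIST1H2AC, so the higher count rests in part on the filter. Of 10 replacement and linker histone genes outside those clusters 7 were lower and 0 higher by limma (0 higher at an unadjusted p under 0.05, 1 by voom or on the TPM scale and 2 after quantile normalisation), with a median of −0.39. H1F0, the linker histone of resting cells, was at 93.0 and 96.0 FPKM with olaparib and 52.1 and 51.0 FPKM with palbociclib (−0.86 ± 0.05).

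HOX genes, which set position along the body axis, had 11 of 15 tested members higher with palbociclib and 0 lower by limma (12 and 0 at an unadjusted p under 0.05 and by voom), with a median of 0.33. HOXC10 was at 23.1 and 24.0 FPKM with olaparib and 40.4 and 38.8 FPKM with palbociclib (0.73 ± 0.04). HOXC6 was at 30.3 and 31.4 against 49.6 and 47.7 FPKM (0.64 ± 0.05). The 4 that did not pass were HOXB4, HOXB7, HOXB13 and HOXC4.

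The mitochondrial ribosomal RNA MT-RNR2 was at 3897 and 3886 FPKM with olaparib and 5567 and 5502 FPKM with palbociclib (0.51 ± 0.05), while none of the 13 mitochondrially encoded messages passed. MT-RNR1 was at 554 and 631 against 794 and 1315 FPKM (0.79 ± 0.21), with the 2 palbociclib libraries far apart. Without olaparib replicate 1 or without olaparib replicate 2 only 1 of these 2 genes passed, and 0 passed with no filter on low values (1 at an unadjusted limma p under 0.05).

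The lowest difference of all tested genes belonged to a gene that did not pass and is not in the annotation used (ENSG00000277105, −2.24 ± 1.87). It was at 3878 and 112 FPKM with olaparib, 87.1 and 221 FPKM with palbociclib, 4820 and 4542 FPKM with DMSO and 72.9 and 1765 FPKM with the combination, with the olaparib libraries and the combination libraries each far apart. RF00100, a gene of the 7SK RNA family, was at 23.1 and 48.4 FPKM with olaparib, 23.9 and 7.67 FPKM with palbociclib and 1.12 and 2.05 FPKM with DMSO, and did not pass either (−1.23 ± 0.52).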
